A study of Homo sapiens with 6 samples.

Results

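Cytochrome P450 enzymes, encoded by the CYP genes, are heme proteins that use molecular oxygen and electrons from a partner protein to oxidize drugs, steroids, fatty acids, vitamins and bile acid precursors. In the endoplasmic reticulum the electrons come mainly from POR, and in mitochondria from FDXR through FDX1. The liver holds most of the drug-metabolizing members, and their expression is a hallmark of mature hepatocytes. The 41 P450 genes described here were the rows of the deposited table whose symbol had the form of a P450 gene name and whose transcript types included protein_coding, out of 35856 genes in all. The sterol demethylase gene CYP51A1 was left out by the rule, as were 5 other matching symbols without that transcript type.

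RNA was sequenced from HCCLM3 cells, an established human hepatocellular carcinoma line. The 3 libraries of the control group, called Empty here and NC in the sample labels, came from cells given an empty vector, and the 3 libraries of the LINC00862 group came from cells given a vector carrying the long non-coding RNA LINC00862, which was loaded on pcDNA3.1 per the study's methods. Both groups therefore carried a vector, and neither the labels nor the methods state whether the sequenced cells were transfected transiently or stably, or whether the libraries came from separate cultures, so the p-values measure the spread between these libraries, which may be technical. LINC00862 itself had 11, 21 and 6 counts in Empty and 145, 121 and 76 counts in LINC00862. Its level was low in both groups, at 0.0425, 0.0884 and 0.0214 FPKM in Empty and 0.530, 0.506 and 0.312 FPKM in LINC00862. FPKM is fragments per kilobase, scaled to sequencing depth, a level per length.

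Total counts lay between 58241123 and 68229070 per library. The groups stood far apart across the whole table. Of 20741 genes that passed the filter on low counts, 64.2% were called at an adjusted p under 0.05 (edgeR), so a call on its own does not set a P450 gene apart. Cell type markers moved too. Of 9 hepatocyte markers with a row, 7 were tested. Of these 7, 6 were higher in LINC00862 and 1, SERPINA1, was lower (log2 fold change -3.55, edgeR). Over all tested genes, 34.4% were higher and 29.8% were lower. ALB, APOB, TAT and TTR had too few counts in Empty and passed the filter through LINC00862, where they were higher. The summed level of the 9 markers rose from 2.94 to 3.46 FPKM in Empty to 539 to 618 FPKM in LINC00862. Most of that sum was FGB, the fibrinogen beta chain, at 525 to 598 FPKM, while ALB, the defining hepatocyte product, was at 1.21 to 1.71 FPKM in LINC00862 and had 0 counts in Empty replicates 1 and 2. Of 9 general epithelial markers, 7 were higher and 1 was lower in LINC00862 (summed FPKM 244 to 349 in Empty and 566 to 694 in LINC00862), and of 9 mesenchymal markers 1 was higher and 6 were lower (606 to 663 and 15.4 to 19.8). The part of these differences in the P450 results was not tested. In bulk RNA, a change in the share of cells that express a gene and a change per cell cannot be told apart.

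Most P450 genes that differed were higher in LINC00862. Of the 41 members, 24 passed the filter and were tested. Among these 24, 16 were higher in LINC00862 (against 34.4% of all tested genes), 4 were lower (against 29.8%), and 4 were not called. The FPKM of 22 of the 24 did not overlap between the groups, against 71.1% of all tested genes. Because 12 of the 24 reached the count threshold in all libraries of 1 group at most, and such a gene passes the filter through the group where it is high, the other 12, which reached it in all libraries of both groups, are given separately. Of these 12, 9 were higher, 1 was lower and 2 were not called. Of the 15072 genes meeting the same condition, 4232 were higher and 5323 were lower, together 63.4%. The median log2 fold change of the 12 members was 2.28, and that of the 15072 genes was -0.13.

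The summed level of the 41 members was 27.2, 19.5 and 15.7 FPKM in Empty replicates 1, 2 and 3, and 62.5, 61.7 and 55.5 FPKM in the LINC00862 replicates. All LINC00862 libraries lay above all Empty libraries. CYP1B1 was the most abundant member in each of the 6 libraries, with 52.5% to 64.4% of the sum in Empty and 33.6% to 34.6% in LINC00862. The vitamin D and retinoid P450 genes made up 8.58% to 12.5% of the sum in Empty and 34.5% to 37.5% in LINC00862, and the steroid hormone P450 genes 0.651% to 1.42% and 14.7% to 19.4%. These shares in LINC00862 came mostly from single genes. CYP11A1 had a mean of 10.3 FPKM, against 10.7 FPKM for all steroid hormone members. CYP27B1 and CYP2R1 had means of 11.7 and 7.45 FPKM, against 21.2 FPKM for all vitamin D and retinoid members. The order of the next most abundant members changed as well. In each LINC00862 library CYP27B1, CYP11A1, CYP2R1 and CYP39A1 followed CYP1B1, whereas in Empty the places after CYP1B1 were held by CYP2U1, CYP2S1, CYP20A1, CYP27A1 and CYP27C1, whose order differed between the libraries. CYP27B1 and CYP11A1 are neighbors in the LINC00862 order, and their ranges overlapped.

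**Figure D1:**
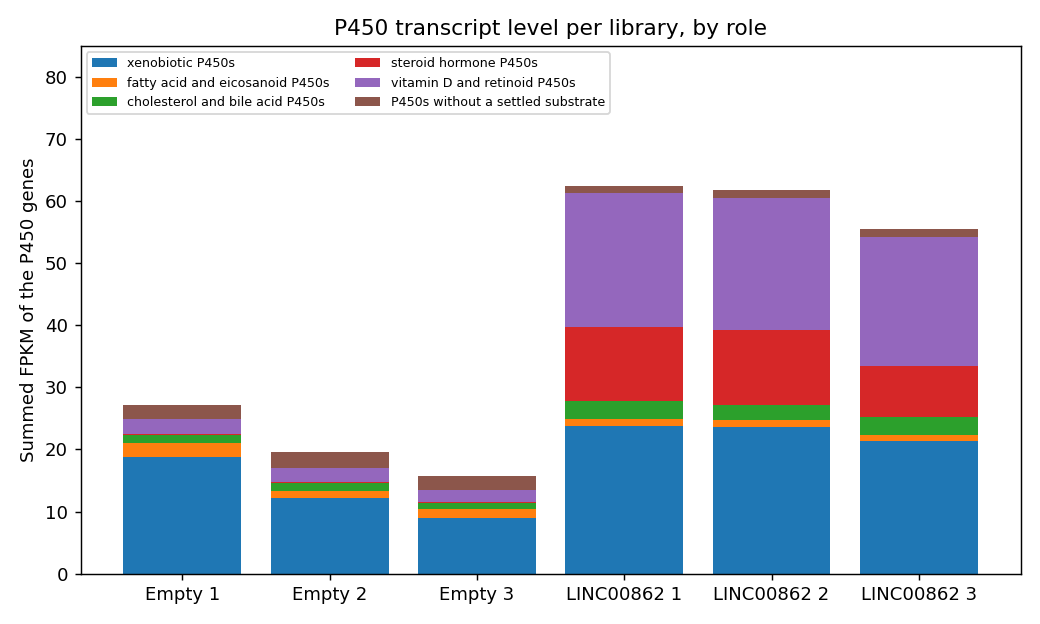
Summed FPKM of the 41 P450 genes in each library, stacked by role; each bar is 1 library. The LINC00862 bars reach 55.5 to 62.5 FPKM against 15.7 to 27.2 FPKM in Empty, and the vitamin D and retinoid block takes up 34.5% to 37.5% of each LINC00862 bar against 8.58% to 12.5% in Empty. In LINC00862 that block is mostly CYP27B1 and CYP2R1.

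The vitamin D enzymes act in sequence: CYP2R1 makes 25-hydroxyvitamin D, CYP27B1 turns it into the active hormone, and CYP24A1 breaks the hormone down. CYP27B1 was at 0.440, 0.522 and 0.739 FPKM in Empty and 12.1, 11.8 and 11.2 FPKM in LINC00862. Its 3 LINC00862 values were far above every Empty value, and it rose by 4.50 on the log2 scale (standard error 0.24, adjusted p = 6.76e-07, edgeR). CYP2R1 was at 0.724, 0.762 and 0.675 FPKM in Empty and 7.49, 7.67 and 7.18 FPKM in LINC00862, a log2 fold change of 3.52 (standard error 0.16, adjusted p = 2.33e-07, edgeR). Replicates of this gene lay close together in both groups. CYP24A1 was much lower, with 10, 12 and 0 counts in Empty and 59, 28 and 47 counts in LINC00862 (log2 fold change 2.68, standard error 0.88, adjusted p = 0.0241, edgeR). This call was lost without LINC00862 replicate 1 (2.54, adjusted p = 0.0741) and without LINC00862 replicate 3 (2.56, adjusted p = 0.0805), and without Empty replicate 2 the value was 3.28. VDR, the vitamin D receptor, which induces CYP24A1, was at 1.47 ± 0.246 FPKM (SD, n = 3) in Empty and 3.53 ± 0.392 FPKM in LINC00862 (log2 fold change 1.44, adjusted p = 5.96e-05, edgeR).

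The retinoid enzymes moved in both directions. CYP26A1 and CYP26B1 clear retinoic acid, and CYP27C1 desaturates retinol. CYP26A1 had 0 counts in every Empty library and 56, 38 and 47 counts in LINC00862, at 0.239, 0.187 and 0.226 FPKM. Against a floor of 3 counts over the Empty group it was at least 50.2-fold higher (adjusted p = 0.000195, edgeR). CYP26B1 was at 0.202, 0.155 and 0.147 FPKM in Empty and 1.55, 1.67 and 2.04 FPKM in LINC00862, and rose by 3.56 on the log2 scale (standard error 0.27, adjusted p = 5.1e-06, edgeR). CYP27C1 went the other way, with 321, 266 and 138 counts in Empty and 4, 0 and 0 counts in LINC00862 (log2 fold change -7.29, standard error 0.81, adjusted p = 5.59e-05, edgeR). Its LINC00862 counts all came from replicate 1. Without that library the fitted value was -10.84, and the fold, against the floor, at least 142 lower. Among the retinoic acid receptors on the list of regulators, RARB was higher (log2 fold change 1.48, adjusted p = 0.0173) and RARA was lower (-1.07, adjusted p = 0.000475) by edgeR.

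**Figure D2:**
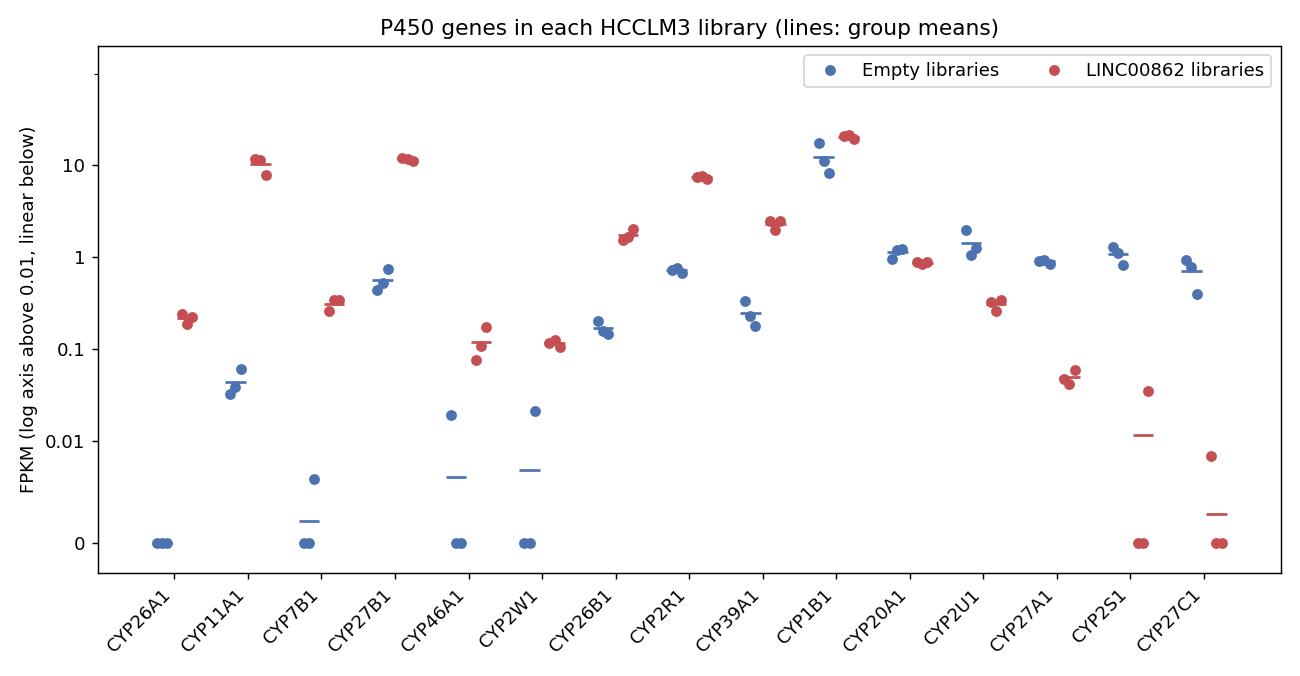
FPKM of 15 P450 genes in each library, on an axis that is logarithmic above 0.01 and linear below; each point is 1 library and each line a group mean of 3 libraries. From left to right the genes run from CYP26A1, with 0 in every Empty library, to CYP27C1, with 0.397 to 0.929 FPKM in Empty and 0.00855 FPKM or 0 in LINC00862.

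Among the steroid hormone enzymes, CYP11A1 showed the largest rise of any member with counts in every library. It is the mitochondrial enzyme that cleaves the cholesterol side chain to give pregnenolone, the first step of steroid hormone synthesis, and is best known from adrenal gland and gonads. CYP11A1 was at 0.0326, 0.0383 and 0.0609 FPKM in Empty and 11.6, 11.5 and 7.82 FPKM in LINC00862, which correspond to 8, 9 and 14 counts against 3024, 2583 and 1784 counts. It rose by 7.95 on the log2 scale (standard error 0.29, adjusted p = 8.54e-08, edgeR), and LINC00862 replicate 3 was the lowest of its group. AC090826, a gene that overlaps CYP11A1 on the opposite strand, had 0 counts in Empty and 264, 239 and 177 counts in LINC00862, and whether counting used the strand is not given in the sources used here. CYP21A2, the adrenal 21-hydroxylase, was at 0.144, 0.238 and 0.0851 FPKM in Empty and 0.294, 0.445 and 0.292 FPKM in LINC00862 (log2 fold change 1.32, standard error 0.47, adjusted p = 0.0353, edgeR). Its groups did not overlap, but the call was lost without Empty replicate 1, Empty replicate 3 or any 1 of the LINC00862 libraries (adjusted p from 0.0621 to 0.116), with scaling by library size only (0.0563) and with every gene kept that had a count (0.057). CYP21A2 has a near-identical pseudogene that can share its reads, and TNXB overlaps it on the opposite strand. CYP19A1, the aromatase that makes estrogens, had 0, 0 and 4 counts in Empty and 20, 16 and 39 counts in LINC00862 (log2 fold change 4.23, standard error 1.11, adjusted p = 0.00829, edgeR). Without Empty replicate 3 the fitted value was 7.75, and the fold, against the floor, at least 18.1, while without LINC00862 replicate 3 the fitted value was 3.63. MIR4713HG, which overlaps CYP19A1 on the opposite strand, had 0 counts in Empty and 13, 13 and 14 counts in LINC00862.

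CYP11A1 and CYP1A1 lie on the minus strand of chromosome 15 with 352 kb between them (CYP11A1 at chr15:74337759-74367646 and CYP1A1 at chr15:74719542-74725536, hg38 coordinates of the deposited table), and both were higher in LINC00862. Members lying within 1 Mb of each other formed 6 groups, and each of the other five had 1 tested member at most, so calls of neighbors could be set side by side here alone. The 250 bases before the RefSeq start of each (GRCh38.p14) are shown because these neighbors were both called, written 5′ to 3′ on the strand of the gene. Capitals mark GCGTG, the core of the site bound by the aryl hydrocarbon receptor with ARNT, and TATAAA, each searched on both strands.

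CYP11A1, chr15:74367647-74367896: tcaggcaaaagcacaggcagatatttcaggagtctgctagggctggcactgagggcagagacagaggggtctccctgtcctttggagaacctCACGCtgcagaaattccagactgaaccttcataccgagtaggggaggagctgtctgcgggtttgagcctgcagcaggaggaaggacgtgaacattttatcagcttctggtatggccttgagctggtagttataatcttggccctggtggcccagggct

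CYP1A1, chr15:74725529-74725778: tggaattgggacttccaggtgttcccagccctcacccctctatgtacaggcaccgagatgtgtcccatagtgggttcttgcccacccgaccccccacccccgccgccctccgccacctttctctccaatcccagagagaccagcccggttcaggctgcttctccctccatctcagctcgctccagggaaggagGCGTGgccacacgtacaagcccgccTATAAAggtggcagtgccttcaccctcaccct

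In the CYP1A1 window, GCGTG began 57 bases and TATAAA 32 bases before the start. The CYP11A1 window held GCGTG on its other strand, beginning 158 bases before the start, and no TATAAA. RefSeq windows matched 29 of the 41 members and 18 of the 24 tested ones. GCGTG was in 4 of these 18, namely CYP11A1, CYP1A1, CYP20A1 and CYP2W1, and in 32.2% of all 35116 windows. TATAAA was in CYP1A1 and CYP26B1 among the 18, in 10 of the 29, and in 10.7% of all windows.

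The xenobiotic P450 genes differed little in CYP1B1 and more in CYP1A1, both of which are known targets of the aryl hydrocarbon receptor (AHR). CYP1B1, an enzyme of estrogen and polycyclic hydrocarbon oxidation, was at 17.5, 11.2 and 8.24 FPKM in Empty and 21.0, 21.4 and 19.2 FPKM in LINC00862 (log2 fold change 0.93, standard error 0.22, adjusted p = 0.00472, edgeR). Empty replicate 1 came close to the lowest LINC00862 library, so the gap between the groups was small beside the spread within Empty. CYP1B1-AS1, on the opposite strand, had 18 to 24 counts in Empty and 75 to 147 in LINC00862, far fewer than the 3291 to 9595 counts of CYP1B1. CYP1A1 was at 0.125, 0.0712 and 0.0999 FPKM in Empty and 0.986, 0.893 and 0.648 FPKM in LINC00862, a log2 fold change of 3.24 (standard error 0.35, adjusted p = 4.94e-05, edgeR). AHR itself overlapped between the groups (7.94, 3.94 and 3.67 FPKM in Empty, 5.88, 7.32 and 6.16 FPKM in LINC00862; log2 fold change 0.51, adjusted p = 0.0992), ARNT, its partner, was higher in LINC00862 (1.52, adjusted p = 9.35e-05), and 2 other AHR targets, the repressor AHRR (-1.36, adjusted p = 0.0152) and TIPARP (-0.64, adjusted p = 0.00769), were lower, all by edgeR.

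CYP3A5, a drug-metabolizing member also expressed outside the liver, was at 0.497, 0.336 and 0.227 FPKM in Empty and 0.999, 0.927 and 0.874 FPKM in LINC00862 (log2 fold change 1.59, standard error 0.27, adjusted p = 0.000764, edgeR). Its neighbor CYP3A4, the main drug-metabolizing P450 of adult liver, had 5 counts in 1 LINC00862 library and 0 in the other five. CYP2D6 was at 0.550, 0.462 and 0.368 FPKM in Empty and 0.636, 0.333 and 0.627 FPKM in LINC00862, with groups that overlapped (log2 fold change 0.40, standard error 0.38, adjusted p = 0.384, edgeR). It shares near-identical sequence with CYP2D7, so its reads may be split between them, and NDUFA6-DT overlaps it on the opposite strand.

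The 17 members that did not pass the filter included CYP2A6, CYP2A7, CYP2B6, CYP2C8, CYP2C18, CYP2C19, CYP2E1, CYP3A4, CYP4A11, CYP4A22, CYP4B1, CYP4F2, CYP4F8, CYP4F11, CYP7A1 and CYP8B1. None exceeded 22 counts or 0.0612 FPKM in any library, and 7 of them had counts in 1 library only. CYP4F8 had 0 counts in Empty and 20, 6 and 22 counts in LINC00862, at least 17.1-fold higher against the floor, and CYP4F11 had 16, 4 and 11 counts in Empty and 0 in LINC00862, at least 9.68-fold lower. With every gene kept that had at least 1 count, these 2 of the 17 had an adjusted p under 0.05 (0.0068 and 0.0199, edgeR).

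**Figure D3:**
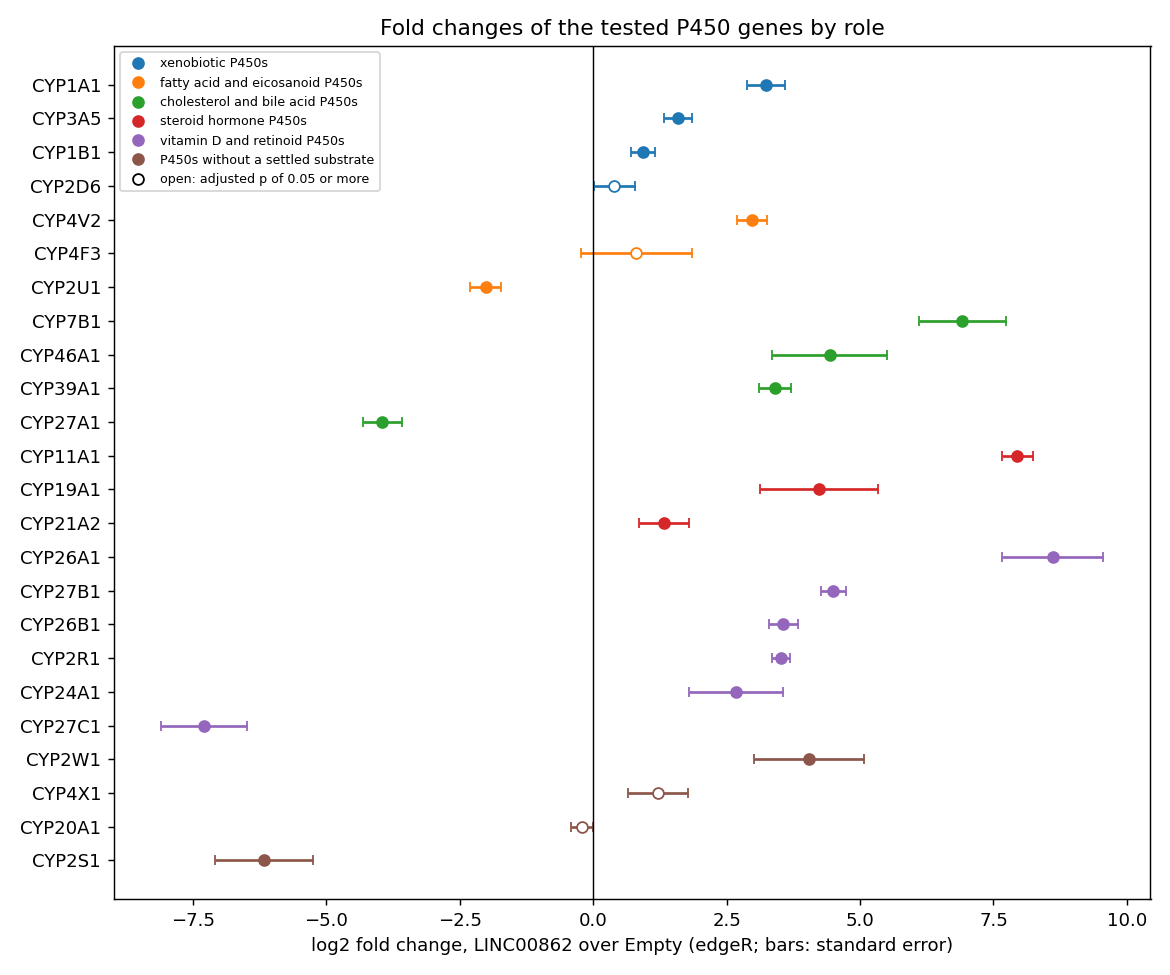
Fitted log2 fold change of the 24 tested P450 genes, LINC00862 over Empty, with the standard error as the bar, colored by role; open points had an adjusted p of 0.05 or more (edgeR). Filled points to the right of 0 are the 16 higher genes, filled points to the left the 4 lower genes, CYP2U1, CYP27A1, CYP2S1 and CYP27C1; the position of CYP26A1, with 0 counts in Empty, depends on the prior count of the fit.

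Cholesterol is turned into bile acids by a neutral route that starts with CYP7A1 and uses CYP8B1, and by an acidic route through CYP27A1 and CYP7B1, while CYP46A1 and CYP39A1 make and process 24-hydroxycholesterol. CYP27A1, the mitochondrial sterol 27-hydroxylase, was at 0.919, 0.933 and 0.850 FPKM in Empty and 0.0473, 0.0411 and 0.0592 FPKM in LINC00862. It fell by 3.95 on the log2 scale (standard error 0.37, adjusted p = 1.87e-05, edgeR), and replicates of each group lay close together. CYP7B1, the next enzyme of that route, had 0, 0 and 4 counts in Empty and 149, 170 and 174 counts in LINC00862 (log2 fold change 6.92, standard error 0.82, adjusted p = 8.39e-05, edgeR). Without Empty replicate 3 the fitted value was 10.43, and the fold, against the floor, at least 119. The members of the acidic route thus changed in opposite directions. CYP39A1 was at 0.330, 0.231 and 0.176 FPKM in Empty and 2.48, 1.99 and 2.46 FPKM in LINC00862 (log2 fold change 3.40, standard error 0.30, adjusted p = 1.28e-05, edgeR). CYP46A1, best known from neurons, had 12, 0 and 0 counts in Empty and 56, 68 and 111 counts in LINC00862 (log2 fold change 4.43, standard error 1.08, adjusted p = 0.00564, edgeR). Without Empty replicate 1, which held all its Empty counts, the fitted value was 9.36, and the fold, against the floor, at least 53.6. CYP7A1 had 4 counts in Empty replicate 1 and CYP8B1 had 9 counts in LINC00862 replicate 2, with 0 in every other library.

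Of the fatty acid and eicosanoid P450 genes, 3 of 9 were tested. CYP2U1, a long-chain fatty acid hydroxylase, was at 1.98, 1.06 and 1.25 FPKM in Empty and 0.328, 0.261 and 0.338 FPKM in LINC00862. It fell by 2.01 on the log2 scale (standard error 0.29, adjusted p = 0.000264, edgeR) and was the 1 member at the count threshold in both groups that was lower. CYP4V2, a fatty acid omega-hydroxylase mutated in a corneoretinal dystrophy, was at 0.109, 0.0975 and 0.0695 FPKM in Empty and 0.740, 0.713 and 0.493 FPKM in LINC00862 (log2 fold change 2.97, standard error 0.28, adjusted p = 2.17e-05, edgeR). CYP4F3, a leukotriene B4 hydroxylase, had 12, 0 and 15 counts in Empty and 20, 4 and 20 counts in LINC00862, and the groups overlapped (log2 fold change 0.81, standard error 1.04, adjusted p = 0.519, edgeR).

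Members without a settled substrate were split. CYP2S1, an extrahepatic epithelial P450, had 236, 198 and 149 counts in Empty, or 1.31, 1.11 and 0.819 FPKM, and 0, 0 and 7 counts in LINC00862 (log2 fold change -6.16, standard error 0.92, adjusted p = 0.000335, edgeR). Without LINC00862 replicate 3 the fitted value was -10.59, with a fold at least 128 lower against the floor, and without LINC00862 replicate 1 it was -5.54. CYP2W1, a P450 found in fetal gut and in some tumors, had 0, 0 and 4 counts in Empty and 25, 23 and 20 counts in LINC00862 (log2 fold change 4.04, standard error 1.03, adjusted p = 0.00737, edgeR). Without Empty replicate 3 its fitted value was 7.56, and the fold, against the floor, at least 16.4. CYP20A1 was at 0.952, 1.21 and 1.23 FPKM in Empty and 0.878, 0.851 and 0.884 FPKM in LINC00862. Its FPKM did not overlap between the groups, yet the scaled counts were not called (log2 fold change -0.21, standard error 0.20, adjusted p = 0.4, edgeR), and with upper quartile scaling the value was 0.00. CYP4X1 was at 0.0402, 0.130 and 0.107 FPKM in Empty and 0.210, 0.192 and 0.181 FPKM in LINC00862 (log2 fold change 1.21, standard error 0.56, adjusted p = 0.0866, edgeR).

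With 3 libraries in each group, the exact two-sided permutation test of the FPKM of a single gene cannot give a p below 0.1, and it gave 0.1 for each tested member whose groups did not overlap.

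Most genes on the list of P450 redox partners, which holds PGRMC1 and PGRMC2 beside proteins that pass electrons, moved against the majority of the P450 genes. Of 9 redox partners, 1 was higher, 6 were lower and 2 were not called. All 9 reached the count threshold in both groups, as did 15072 genes, of which 4232 were higher and 5323 were lower. The median log2 fold change of the partners was -0.71, and that of the 15072 genes was -0.13. POR, the reductase of the microsomal P450 enzymes, was at 6.88, 7.20 and 8.19 FPKM in Empty and 4.23, 4.45 and 3.50 FPKM in LINC00862 (log2 fold change -0.71, standard error 0.15, adjusted p = 0.00313, edgeR). CYB5A, CYB5B and CYB5R3, of the cytochrome b5 system, and PGRMC1, a heme protein that binds P450 enzymes, were also lower, with log2 fold changes from -1.20 to -0.49. In the mitochondrial chain that serves CYP11A1, CYP27A1, CYP27B1 and CYP24A1, the carrier FDX1 was higher (4.98, 6.46 and 7.34 FPKM in Empty, 9.56, 9.73 and 9.80 FPKM in LINC00862; log2 fold change 0.80, adjusted p = 0.0061, edgeR), whereas its reductase FDXR was lower (8.35, 10.6 and 13.3 FPKM, then 5.28, 5.61 and 4.14 FPKM; -0.95, adjusted p = 0.00393, edgeR). FDX2 and PGRMC2 were not called, at -0.40 and -0.12.

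Heme, which each P450 enzyme needs, is built by a pathway that starts with ALAS1. ALAS1 overlapped between the groups (20.3 ± 1.15 FPKM (SD, n = 3) in Empty and 22.7, 20.9 and 11.2 FPKM in LINC00862; log2 fold change 0.01, standard error 0.22, adjusted p = 0.968, edgeR). Of the later enzymes, ALAD, UROS, UROD, CPOX, PPOX and FECH were lower in LINC00862, with log2 fold changes from -1.80 to -0.72 and no overlap between the groups. CPOX fell from 14.3, 11.5 and 11.8 FPKM in Empty to 2.95, 3.41 and 3.14 FPKM in LINC00862 (log2 fold change -1.80, standard error 0.14, adjusted p = 7.15e-06, edgeR). On the side of heme breakdown, HMOX1, the inducible heme oxygenase, was higher (15.7, 16.4 and 22.2 FPKM, then 37.0, 31.7 and 32.6 FPKM; log2 fold change 1.07, adjusted p = 0.000996, edgeR), as was the biliverdin reductase BLVRB (1.72, adjusted p = 0.000293, edgeR), while HMOX2 and BLVRA were not called. Of the 11 heme genes described here 72.7% were called, near the 64.2% of all tested genes, and 8 of 11 did not overlap between the groups, against 71.1%. All 11 reached the count threshold in both groups, as did 15072 genes, of which 4232 were higher and 5323 were lower. The 6 lower and 2 higher heme calls were the same in number under each scaling and tool tried. The 6 lower redox partners became 5 with upper quartile scaling and 7 without Empty replicate 1.

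**Figure D4:**
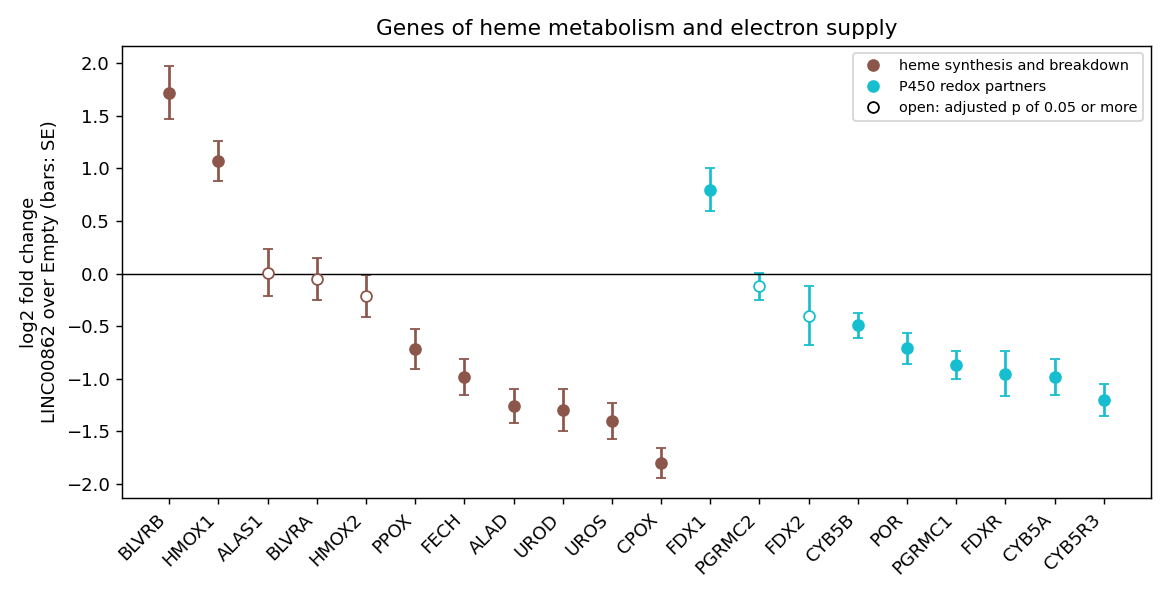
Fitted log2 fold change of the genes of heme synthesis and breakdown and of the P450 redox partners, LINC00862 over Empty, with the standard error as the bar; open points had an adjusted p of 0.05 or more (edgeR). The 6 filled heme points under 0 are enzymes that act after ALAS1, and FDX1 is the filled redox point above 0.

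Of 18 transcriptional regulators of P450 genes, 16 had a row and 14 were tested, of which 9 were higher, 4 were lower and 1 was not called, against 34.4% higher and 29.8% lower over all tested genes. Of the higher ones, NR5A2, CEBPA, HNF4A and NR1I3 did not reach the count threshold in both groups and passed the filter through LINC00862. Among regulators that reached it in both, ARNT, NR1H3, PPARA, RARB and VDR were higher. AHRR, RARA, RXRA and TIPARP were lower, and AHR was not called. Of the 15072 genes at the count threshold in both groups, 4232 were higher and 5323 were lower. Across the alternative fits, 7 to 10 regulators were higher and 3 or 4 were lower. In Empty, NR5A2, CEBPA, HNF4A and NR1I3 were low or absent, whereas PPARA and NR1H3 had means of 1.05 and 0.990 FPKM. NR0B2, which was not tested, had 3, 0 and 8 counts in Empty and 0 in every LINC00862 library. NR5A2, a regulator of bile acid synthesis, had 0 counts in Empty and 0.220, 0.376 and 0.373 FPKM in LINC00862, at least 180-fold higher against the floor. NR5A2 (chr1:200027614-200175603) lies near the LINC00862 gene (chr1:200253419-200374688). Whether the rises of these neighbors are related was not tested. CEBPA was at 0.0158, 0 and 0.0874 FPKM in Empty and 1.74, 1.31 and 1.37 FPKM in LINC00862 (log2 fold change 5.46, standard error 0.83, adjusted p = 0.000382, edgeR). HNF4A, a main activator of hepatocyte P450 genes, had 0, 0 and 4 counts in Empty and 34, 24 and 14 counts in LINC00862, where it was at 0.0268 to 0.0594 FPKM, and was called higher (adjusted p = 0.00777, edgeR). NR1I3, the xenobiotic receptor that induces CYP2B6, was at 0.0246, 0.0600 and 0.0640 FPKM in Empty and 0.272, 0.255 and 0.162 FPKM in LINC00862 (log2 fold change 2.30, standard error 0.53, adjusted p = 0.00428, edgeR), and CYP2B6 had 7 counts over the LINC00862 group and 0 in Empty. RXRA, the partner with which NR1I3 binds DNA, was lower (log2 fold change -1.37, adjusted p = 0.000137, edgeR).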

How the data were processed

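The authors deposited 1 table with the read count per gene, without normalization, and the FPKM, scaled by the authors to gene length and sequencing depth. Per the labels, cutadapt 1.9, HISAT2 2.0.4 on hg38, UMI-tools and StringTie 1.3.4d were used; their settings and the annotation are not given in the sources used here. Libraries were poly(A)-selected and kept the strand.

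Value columns were matched to samples by name. Genes were kept by filterByExpr (minimum count 10, here 0.169 CPM), scaled by TMM and compared with the quasi-likelihood test of edgeR 4.0.16 in R 4.3.3, fitted on the whole table, with Benjamini-Hochberg adjustment over all 20741 tested genes. Standard errors come from the test statistic. Folds against a group at 0 use a floor of 3 counts over that group, for counting error only. The model fits were tested on simulated counts in which few genes changed, so that test does not cover data where most genes differ. All 41 members were in GENCODE 29, 9 with the same coordinates.

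Alternatives were DESeq2 1.42.0, limma-trend (limma 3.58.1) on log2(FPKM + 0.1) and log2(FPKM + 1), 2 other scalings, no filter, a false discovery rate of 0.01, a replicate block and leaving out each library. Values per library are given for members whose group mean reached 1 FPKM and for the 8 strongest rises and 8 strongest falls called where a group mean reached 0.1 FPKM; from the lists, genes reaching 1 FPKM were eligible. Further members, and regulators under 1 FPKM, were added after their values were seen. Members and lists were chosen with earlier results of these data known. Some genes are not reported here by name, and the heme and regulator lists are counted without them.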

Additional observations from a re-analysis of the deposited data

How the results depend on the processing

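The numbers of P450 members called stayed within 1.5 times of 16 higher and 4 lower in all 14 alternatives, with 14 to 17 higher and 4 to 6 lower across the fits that each left out 1 library, and the number without overlap in FPKM ranged from 22 to 24. Of 336 single values under the alternatives, 319 kept their direction and side of the threshold, 14 lost the call, 2 gained it and 1 reversed, CYP20A1, which moved from -0.21 to 0.00 with upper quartile scaling. CYP21A2 and CYP24A1 lost the call most often, CYP19A1 lost it on log2(FPKM + 1), and CYP4X1 gained it on both FPKM scales (adjusted p = 0.0309 and 0.026, limma-trend); the cause was not tested. With a replicate block 14 members were higher and 4 lower, and CYP24A1 (2.98, adjusted p = 0.0541, edgeR) and CYP21A2 (1.41, adjusted p = 0.0588, edgeR) were not called. The sources used here do not say whether libraries sharing a number were prepared together. Their deviations from the means of their groups correlated at -0.05, -0.03 and -0.01, which cannot show whether they were. Scaling shifted the whole table: under TMM the median log2 fold change was 0.11 (7145 genes higher, 6176 lower), under upper quartile scaling 0.32 (8060 and 5291), and when only library size was used -0.05 (6437 and 6826). Depth limits the 17 untested members, none of which had more than 22 counts in a library.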

Other observations

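Among the symbols that the rule left out for their transcript type in the deposited table, CYP2J2, the arachidonic acid epoxygenase, had 0 counts in every Empty library and 62, 49 and 53 counts in LINC00862, at least 58.4-fold higher against a floor of 3 counts over the Empty group (adjusted p = 0.000136, edgeR). CYP3A7, the fetal liver member of its cluster, had 0 counts in Empty and 14, 4 and 10 counts in LINC00862, at least 9.96-fold higher, and was too low to be tested. CYP2D7, which shares sequence with CYP2D6, had 58, 84 and 88 counts in Empty and 143, 113 and 117 counts in LINC00862 (log2 fold change 0.78, adjusted p = 0.0694, edgeR). CYP17A1 had 5 counts in 1 LINC00862 library and CYP3A43 had 3 counts in 1 Empty library. CYP51A1, the sterol demethylase of cholesterol synthesis, was at 68.9, 51.9 and 49.5 FPKM in Empty and 33.1, 37.6 and 30.5 FPKM in LINC00862, and fell by 0.57 on the log2 scale (adjusted p = 0.00638, edgeR).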
